A study of Mus musculus with 12 samples.

Results

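The comparison reported here reads the loss of BACE2 in mouse pancreatic islets, averaged over islets that carry and islets that lack a transgene encoding the human form of islet amyloid polypeptide (hIAPP). For each gene it takes the mean of 2 differences, BACE2-KO minus WT and hIAPP-TgxBACE2-KO minus hIAPP-Tg, so that 6 arrays without BACE2 stand against 6 arrays with it. Its members are all 17097 genes of 17097 in the series that have a probe set with a single symbol, and 12825 of them lay above a filter on low levels and were tested.

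The 12 Affymetrix arrays came from islets of Mus musculus aged 12 weeks and fed standard chow, with 3 arrays in each of 4 groups. BACE2-KO mice lack BACE2, hIAPP-TgxBACE2-KO mice lack BACE2 and carry the transgene, WT mice have BACE2 and no transgene, and hIAPP-Tg mice have BACE2 and carry the transgene. The labels give B6;129P2-Bace2tm1Bdes/J as the strain of all 4 groups, controls included. The promoter of the transgene, and whether an array holds islets of 1 mouse or of several, are not stated in these sources, so the p-values measure spread between arrays, which may be technical. Genetic background that was bred along with the deleted allele cannot be told apart from the loss of BACE2 in this design.

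BACE2 is a membrane-bound aspartyl protease that sheds the extracellular parts of membrane proteins, and in the pancreas it is best known from beta cells, the insulin-secreting cells of the islet. Human islet amyloid polypeptide is secreted together with insulin and can form the amyloid deposits of type 2 diabetes, whereas the mouse peptide does not. Beside beta cells, islets hold alpha, delta, PP and epsilon cells, which secrete glucagon, somatostatin, pancreatic polypeptide and ghrelin.

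All levels and differences are on the log2 scale, so a difference of 1 is a doubling, and every difference is without BACE2 minus with BACE2. Median levels per array lay between 4.22 and 4.35, and the top values between 13.93 and 14.03. Ins2, an insulin gene, stood at that upper end in every array, and Gcg, the glucagon gene, stood between 13.07 and 13.22 without BACE2 and between 13.05 and 13.19 with it, so the defining islet hormones were present in every group. Digestive enzyme genes of acinar cells, the exocrine cells around the islets, were also present at varied levels, as described with the other cell types.

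The targeted gene did not separate the groups. Bace2 read 10.85, 11 and 10.97 in BACE2-KO and 10.65, 10.95 and 10.94 in hIAPP-TgxBACE2-KO arrays, against 11.18, 10.91 and 11.18 in WT and 10.89, 11.03 and 11.09 in hIAPP-Tg arrays. Its ranges overlapped, with an average difference of -0.15 (SE 0.07, adjusted p = 0.441), and the other probe sets named Bace2 differed by -0.23 and -0.02. Whether the deletion covers these probes is not stated, so they do not check the genotype and each direction rests on the labels. Bace1, which encodes the related beta-secretase of neurons, differed by 0.01 (adjusted p = 0.971).

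Without BACE2, 118 genes were called, which is 0.92% of those tested. The threshold for a call was an adjusted p (Benjamini-Hochberg, two-sided) below 0.05 in limma's moderated test across all 12 arrays. Of these, 53 rose (0.413% of tested genes) and 65 fell (0.507%). The median size of their differences was 0.64 and the range 0.23 to 2.25, while the median size over all tested genes was 0.08. Differences of more than 1 were found in 15 genes that rose and 13 that fell. In 89 of the 118, no array without BACE2 overlapped an array with it. Of all tested genes 1.36% had no overlap in either direction. The same arrays chose the 118, so their lack of overlap is a description. Before adjustment, 1468 genes (11.4%) had p under 0.05.

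The averaged contrast called more genes than either of the comparisons it joins. BACE2-KO against WT called 16 genes (0.125% of those tested) and hIAPP-TgxBACE2-KO against hIAPP-Tg called 13 (0.101%), and every one of these was among the 118. These 2 comparisons shared 7 calls, and 96 genes, 40 higher and 56 lower, were called in the average alone. They have no arrays in common. For 116 of the 118 genes the difference had the same sign in both, and for 109 it had an unadjusted p under 0.05 in both. The exceptions in sign were Sema5a and Snhg18. The interaction, limma's test of whether the 2 differences are unequal, had an unadjusted p under 0.05 for 15 of the 118 genes. Over all tested genes that share was 2.40%. The average chose these genes, so the shared sign is a description. The 4 groups share 1 estimate of the spread, from 8 residual degrees of freedom, and precision is limited by how few arrays there are.

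**Figure D1:**
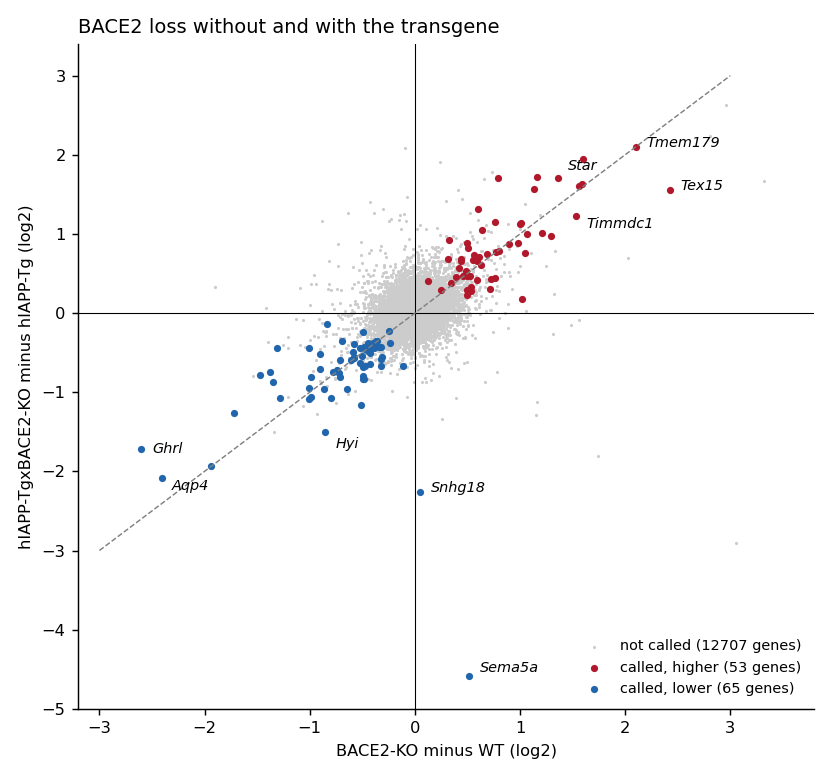
Each point is 1 of the 12825 tested genes, with the BACE2-KO minus WT difference on the horizontal axis and the hIAPP-TgxBACE2-KO minus hIAPP-Tg difference on the vertical axis (both log2). The dashed line marks equal differences. The 53 genes called higher (red) and 65 called lower (blue) in the average lie at varied distances from that line. Snhg18 and Sema5a lie far below it.

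Single arrays weighed on the count of calls. Without WT replicate 1 or WT replicate 2 the fit called 46 genes, without hIAPP-Tg replicate 2 or 3 it called 63, and without hIAPP-TgxBACE2-KO replicate 3 it called 75. With each array left out in turn, 35 of the 118 genes kept their call in all 12 fits, 18 lost it in 1 to 3 of them and 65 in 4 or more. No called gene changed sign under any alternative. With the mean of a gene's probe sets 100 genes were called, and 79 of the 118 kept their call. The calls lost included those of Cd44, Etv1, Hacd2, Micu3, Nptx2, Pappa2, Rab7, Slc35a5, Srxn1, Tnfrsf11b, Trpm5 and Ugt8a, besides those given with their values. The text gives these losses for many genes, and where none is given a call may still have been lost in some of the 12 fits.

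Ghrl and Pnoc, the called genes of a list of neuropeptides and hormones, both fell. Ghrl encodes the precursor of ghrelin, the hormone of epsilon cells and of the stomach. Ghrl read 3.14, 3.09 and 3.14 in BACE2-KO and 3.61, 2.93 and 3.39 in hIAPP-TgxBACE2-KO arrays, against 6.74, 5.31 and 5.12 in WT and 5.23, 4.43 and 5.43 in hIAPP-Tg arrays. All 6 arrays without BACE2 lay below the lowest array with it, and 5 of them lay under the filter level, 3.43, below which expression is not resolved. It fell by 2.16 (SE 0.26, adjusted p = 0.00208) and kept its call in all 12 fits with an array left out. Pnoc, which encodes the precursor of the opioid-like peptide nociceptin, read 3.78, 3.92 and 3.77 in BACE2-KO and 3.97, 3.75 and 4.16 in hIAPP-TgxBACE2-KO arrays, against 5.08, 5.06 and 5.45 in WT and 4.74, 4.92 and 4.44 in hIAPP-Tg arrays. The groups did not overlap, and it fell by 1.06 (SE 0.12, adjusted p = 0.000921), with a larger difference without the transgene (-1.37) than with it (-0.74) and with no call lost. In bulk islets, fewer cells of a type and less RNA per cell cannot be told apart.

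The promoter of Ghrl is shown because no other hormone gene fell as far. The 300 bases run from 250 before to 50 after the first of 4 listed starts, on the minus strand of chr6:113717643-113717942 in the RefSeq table of GRCm38.p6.
Ghrl: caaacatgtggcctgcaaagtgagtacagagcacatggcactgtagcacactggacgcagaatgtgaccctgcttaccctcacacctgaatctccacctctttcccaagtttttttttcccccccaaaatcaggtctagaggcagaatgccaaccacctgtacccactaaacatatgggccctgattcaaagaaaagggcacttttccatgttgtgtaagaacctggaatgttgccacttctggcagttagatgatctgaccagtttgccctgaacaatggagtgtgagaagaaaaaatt

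Of the 19 tested genes of this list, Ghrl and Pnoc fell, 0 rose, and the median difference was 0.14, against 0.02 over all tested genes. Npy, which encodes neuropeptide Y, differed by 0.94 (adjusted p = 0.275), and Tac1, which encodes substance P, by 0.56 (adjusted p = 0.329). Neither passed. Spx, which encodes the peptide spexin and is not in that list, rose by 0.36 (SE 0.07, adjusted p = 0.0274), with levels of 3.69 to 3.96 without BACE2 and 3.35 to 3.56 with it. Its levels lay near the filter level, and its call was lost in 8 of the 12 fits with an array left out.

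Receptors and accessory proteins moved in both directions. Mrap2 encodes an accessory protein that binds melanocortin receptors and the ghrelin receptor. Mrap2 read 3.32, 3.25 and 3.36 in BACE2-KO and 3.5, 3.46 and 3.37 in hIAPP-TgxBACE2-KO arrays, against 4.08, 4.53 and 4.34 in WT and 3.88, 3.73 and 4.04 in hIAPP-Tg arrays. The groups did not overlap, and levels without BACE2 lay near or under the filter level of 3.43. Mrap2 fell by 0.72 (SE 0.09, adjusted p = 0.00269), with no call lost on leaving out an array. It was the single called gene of 22 tested islet G protein-coupled receptors and accessories, of which 8 were higher and 14 lower. Tacr3, which encodes the receptor for neurokinin B, read 3.91, 4.94 and 4.73 in BACE2-KO and 4.3, 5.17 and 4.01 in hIAPP-TgxBACE2-KO arrays, against 3.19, 3.77 and 3.6 in WT and 3.42, 3.18 and 3.45 in hIAPP-Tg arrays. Every array without BACE2 was above every array with it, and levels with BACE2 lay near or under the filter level. Tacr3 rose by 1.07 (SE 0.21, adjusted p = 0.0362). Its call was lost in 9 of 12 fits with an array left out and with the mean of its probe sets (0.56, adjusted p = 0.115). Adgrb3, which encodes an adhesion receptor of the brain-specific angiogenesis inhibitor family, read 6.36, 5.75 and 6.37 in BACE2-KO and 5.69, 6.08 and 6.33 in hIAPP-TgxBACE2-KO arrays, against 7.42, 7.04 and 6.97 in WT and 6.74, 6.58 and 7.19 in hIAPP-Tg arrays. It fell by 0.89 (SE 0.16, adjusted p = 0.0219) without overlap, and lost the call without WT replicate 1, WT replicate 2 or hIAPP-Tg replicate 3 (adjusted p up to 0.0721).

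Genes of glycogen handling were called in both directions. Ppp1r3b encodes a subunit that carries protein phosphatase 1 to glycogen and thereby favours glycogen synthesis. Ppp1r3b read 7.05, 6.48 and 7.25 in BACE2-KO and 7.09, 7.08 and 7.04 in hIAPP-TgxBACE2-KO arrays, against 4.8, 5.49 and 5.73 in WT and 5.62, 5.25 and 5.45 in hIAPP-Tg arrays. The lowest array without BACE2 was above the highest with it. It rose by 1.61 (SE 0.17, adjusted p = 0.000716), with nearly equal differences without the transgene (1.59) and with it (1.63), and kept its call in every fit with an array left out. Pygb, the brain form of glycogen phosphorylase, which breaks glycogen down, rose by 0.66 (SE 0.11, adjusted p = 0.0197), with levels of 6.53 to 7.12 without BACE2 and 6.02 to 6.4 with it (call lost without WT replicate 1, WT replicate 2 or hIAPP-Tg replicate 2, adjusted p up to 0.0634). Ppp1r3e, another glycogen-targeting subunit, fell by 1.05 (SE 0.22, adjusted p = 0.0444), with overlapping ranges of 4.88 to 6.06 without BACE2 and 6.01 to 6.72 with it, and lost its call in 9 of the 12 fits. Of 24 tested genes of glucose and glycogen metabolism, 19 were higher, Ppp1r3b and Pygb rose and 0 fell, with a median of 0.13 (0.02 without WT replicate 1). Ppp1r3e is not in that list. Ppp1r3c differed by -0.49 (adjusted p = 0.306) and G6pc2, the glucose-6-phosphatase of beta cells, by 0.13 (adjusted p = 0.42).

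Sterol genes that passed were a mitochondrial importer and an exporter. Star encodes the protein that brings cholesterol to the inner mitochondrial membrane, the first step of steroid synthesis. Star read 6.38, 6.93 and 6.57 in BACE2-KO and 6.41, 7.11 and 6.41 in hIAPP-TgxBACE2-KO arrays, against 4.92, 5.24 and 5.65 in WT and 5, 4.99 and 4.81 in hIAPP-Tg arrays. No array without BACE2 fell to the level of an array with it. It rose by 1.53 (SE 0.16, adjusted p = 0.000716) and kept its call throughout the fits with an array left out. Abcg1, which exports cholesterol, showed a small and narrow difference. Its level was 9.63 ± 0.06 without BACE2 and 9.93 ± 0.06 with it (SD, n = 6 each), and it fell by 0.30 (SE 0.05, adjusted p = 0.01), but was not called with the mean of its probe sets (-0.27, adjusted p = 0.115). Of 20 tested genes of cholesterol and steroid handling, 14 were higher and the median was 0.08, and Sc5d, an enzyme of cholesterol synthesis, differed by 0.19 (adjusted p = 0.444).

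Amino acid transport and the PERK-ATF4 arm were read together, since ATF4, the transcription factor of the integrated stress response, is known to drive genes of amino acid import and synthesis. Slc7a3 encodes a transporter of cationic amino acids such as arginine. Slc7a3 read 6.53, 7.65 and 6.96 in BACE2-KO and 6.65, 6.83 and 6.75 in hIAPP-TgxBACE2-KO arrays, against 5.76, 6.07 and 5.91 in WT and 5.21, 4.88 and 5.42 in hIAPP-Tg arrays. The groups did not overlap, and it rose by 1.35 (SE 0.17, adjusted p = 0.00219), with a call in all 12 fits with an array left out. Cth, which encodes cystathionine gamma-lyase, the last enzyme of cysteine synthesis from methionine, read 4.99, 6.15 and 5.34 in BACE2-KO and 5.08, 5.02 and 5.29 in hIAPP-TgxBACE2-KO arrays, against 4.73, 4.56 and 4.25 in WT and 4.55, 3.86 and 4.34 in hIAPP-Tg arrays. It rose by 0.93 (SE 0.19, adjusted p = 0.0395) without overlap, and lost the call in 9 of those fits.

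Among 27 tested PERK-ATF4 targets, of 30 listed, 26 were higher without BACE2, against 55.5% of all tested genes. Their median difference was 0.23 (0.30 in BACE2-KO against WT and 0.21 in hIAPP-TgxBACE2-KO against hIAPP-Tg). Cth alone passed the test, and 14 had an unadjusted p under 0.05. Trib3, a pseudokinase induced by this arm, differed by 0.91 (adjusted p = 0.0957), the serine synthesis genes Psat1 by 0.79 (adjusted p = 0.0957) and Psph by 0.69 (adjusted p = 0.0864). Over the alternatives the list median ran from 0.18, without WT replicate 1, to 0.29, without hIAPP-TgxBACE2-KO replicate 1. The mean level of the list was 8.36, 8.55 and 8.59 in BACE2-KO and 8.31, 8.61 and 8.58 in hIAPP-TgxBACE2-KO arrays, against 7.92, 8.20 and 8.30 in WT and 8.08, 8.28 and 8.32 in hIAPP-Tg arrays. The lowest array without BACE2 lay just under the highest with it, so the ranges just overlapped. With the level of acinar markers as a covariate the median was 0.27. Of 22 tested amino acid transporters 17 were higher, with a median of 0.14, and Slc7a3 was the single call. Slc7a8 differed by 0.69 (adjusted p = 0.0843) and Slc7a6 by 0.30 (adjusted p = 0.125). The chaperone genes of the ATF6 and XBP1 arms, the other branches of the unfolded protein response, had 15 of 25 members higher, 0 called (5 with an unadjusted p under 0.05) and a median of 0.04, and Pdia3 differed by -0.45 (adjusted p = 0.144). Cytosolic heat shock and chaperone genes had 13 of 14 higher, 0 called (1 with an unadjusted p under 0.05) and a median of 0.08. With 0.92% of all tested genes called, 0 calls do not set this list or the ATF6 and XBP1 list apart.

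**Figure D2:**
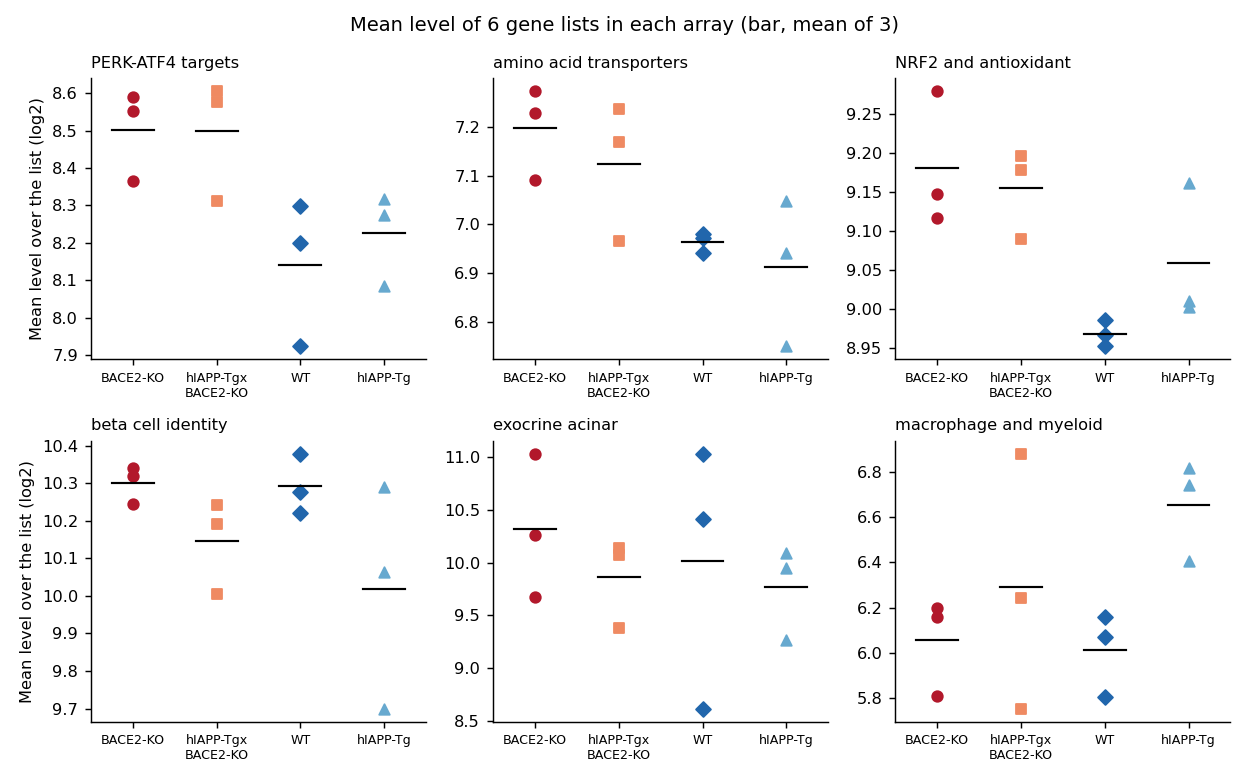
Mean log2 level of 6 gene lists in each array, with a bar at the mean of 3 arrays, for BACE2-KO, hIAPP-TgxBACE2-KO, WT and hIAPP-Tg from left to right. The vertical axes start at different levels. PERK-ATF4 targets ran from 8.31 to 8.61 without BACE2 and from 7.92 to 8.32 with it, while the acinar and macrophage lists overlapped over most of their ranges.

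Antioxidant genes that passed the test rose. Srxn1, which encodes sulfiredoxin, a repair enzyme of peroxiredoxins, read 9.14, 9.11 and 8.83 in BACE2-KO and 9.04, 9.02 and 8.91 in hIAPP-TgxBACE2-KO arrays, against 8.59, 8.65 and 8.81 in WT and 8.51, 8.59 and 8.72 in hIAPP-Tg arrays. Me1, the cytosolic malic enzyme that supplies NADPH, read 8.76, 8.63 and 8.65 in BACE2-KO and 8.59, 8.73 and 8.64 in hIAPP-TgxBACE2-KO arrays, against 8.38, 8.52 and 8.4 in WT and 8.35, 8.34 and 8.39 in hIAPP-Tg arrays. In both genes every array without BACE2 was above every array with it. Srxn1 rose by 0.36 (SE 0.07, adjusted p = 0.0319) and Me1 by 0.27 (SE 0.05, adjusted p = 0.0362), and both calls were fragile, lost in 9 and in 11 of the 12 fits with an array left out. With the mean of its probe sets Me1 differed by 0.18 (adjusted p = 0.221). Of 22 tested genes of the NRF2 and antioxidant list 19 were higher, with a median of 0.10. Nqo1, a quinone reductase, differed by 0.42 (adjusted p = 0.189) and Hmox1, heme oxygenase, by 0.54 (adjusted p = 0.295).

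The promoters of Srxn1 and Me1 are shown because both genes are known targets of NRF2, a factor that binds the antioxidant response element. The motif TGANTCAGC, a form of that element, was searched on both strands after the sequences had been seen, and its matches are in capitals. In the RefSeq table of GRCm38.p6 the Srxn1 window is chr2:152105274-152105573 on the plus strand, with the match starting at position -45 from the start, and the Me1 window is chr9:86695865-86696164 on the minus strand, with the match starting at -6.
Srxn1: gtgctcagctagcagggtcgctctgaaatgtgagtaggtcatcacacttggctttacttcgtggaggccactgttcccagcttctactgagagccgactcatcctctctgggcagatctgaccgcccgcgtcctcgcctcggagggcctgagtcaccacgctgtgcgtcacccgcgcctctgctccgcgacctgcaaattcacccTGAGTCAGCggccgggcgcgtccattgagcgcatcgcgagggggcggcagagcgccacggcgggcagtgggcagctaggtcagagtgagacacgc
Me1: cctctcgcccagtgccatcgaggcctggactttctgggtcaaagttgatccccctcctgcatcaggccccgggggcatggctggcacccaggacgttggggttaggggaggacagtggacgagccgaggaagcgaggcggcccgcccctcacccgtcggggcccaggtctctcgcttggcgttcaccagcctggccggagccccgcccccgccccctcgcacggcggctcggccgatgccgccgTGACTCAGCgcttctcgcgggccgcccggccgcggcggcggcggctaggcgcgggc
The motif was found in 316 of 27025 promoters of this length, or 1.17%, and in 3 of the 90 promoters of called genes that matched the table. Of 18 promoters of the 22 tested antioxidant genes, 3 held it, those of Me1, Prdx1 and Srxn1. It was not found in the windows of Ghrl and Timmdc1.

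Mitochondrial genes gave the smallest p-value of the comparison. Timmdc1 encodes a membrane protein that assembles complex I, the first enzyme of the respiratory chain. Timmdc1 read 8.26, 8.1 and 8.3 in BACE2-KO and 7.59, 7.76 and 7.93 in hIAPP-TgxBACE2-KO arrays, against 6.77, 6.63 and 6.66 in WT and 6.31, 6.68 and 6.62 in hIAPP-Tg arrays. The lowest array without BACE2 exceeded the highest with it, and the spread within groups was small. It rose by 1.38 (SE 0.09, adjusted p = 1.72e-05) and kept its call in every setting tried. It was the single call among 33 tested complex I subunits and assembly factors, of which 14 were higher and 19 lower, with a median of -0.02. Ndufa12 differed by 0.19 (adjusted p = 0.281) and Ndufaf1, another assembly factor, by 0.15 (adjusted p = 0.49). Micu3, a regulator of the mitochondrial calcium uniporter, fell by 0.41 (SE 0.07, adjusted p = 0.0162), with levels of 7.6 to 7.95 without BACE2 and 8.18 to 8.35 with it and a call lost without WT replicate 2. Abcb10, a transporter of the inner mitochondrial membrane, fell by 0.66 (SE 0.10, adjusted p = 0.01), with no call lost. Sqor, which oxidises sulfide in mitochondria, fell by 0.42 (0.24 with the mean of its probe sets, where it was not called).

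The promoter of Timmdc1 is shown as that of the gene with the smallest p-value. It covers chr16:38522614-38522913 on the minus strand in the same table.
Timmdc1: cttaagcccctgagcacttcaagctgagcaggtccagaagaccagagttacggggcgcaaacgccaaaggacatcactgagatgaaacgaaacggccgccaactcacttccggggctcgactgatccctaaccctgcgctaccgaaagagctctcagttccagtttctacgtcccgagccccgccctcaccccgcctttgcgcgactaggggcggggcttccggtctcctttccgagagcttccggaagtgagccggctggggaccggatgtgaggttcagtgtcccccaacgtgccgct

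Lipid and other metabolic genes that passed included both directions. Cpt1c, the brain form of carnitine palmitoyltransferase, rose by 0.62 (SE 0.11, adjusted p = 0.0183) and was the single call among 16 tested genes of fatty acid synthesis and oxidation, with 8 higher and 8 lower. The call of Cpt1c was lost without WT replicate 2. Ugt8a makes galactosylceramide, a sphingolipid of myelin, and Galc breaks it down. Ugt8a rose by 0.96 (SE 0.18, adjusted p = 0.0269) (call lost in 8 of 12 fits with an array left out) and Galc fell by 0.84 (SE 0.14, adjusted p = 0.0197). The call of Galc was lost in 3 of these fits and rests on 1 of its probe sets, since their mean gave -0.23 (adjusted p = 0.221). Hyi, which encodes hydroxypyruvate isomerase, read 5.03, 4.69 and 4.97 in BACE2-KO and 4.85, 4.67 and 4.85 in hIAPP-TgxBACE2-KO arrays, against 5.85, 5.71 and 5.7 in WT and 6.11, 6.38 and 6.39 in hIAPP-Tg arrays. It fell by 1.18 (SE 0.10, adjusted p = 0.000228) without overlap and in every setting. Aldh1a1, an enzyme of retinoic acid synthesis, rose by 0.71 (SE 0.12, adjusted p = 0.0149). Its mean level over all arrays was 3.83, near the filter level of 3.43. H6pd, which makes NADPH in the endoplasmic reticulum, fell by 0.41, and Aass, the first enzyme of lysine breakdown, fell by 0.81. These calls were lost in 5 fits with an array left out for H6pd and in 10 for Aass. Selenop, the carrier protein of selenium, was among the most abundant called transcripts, with levels of 11.55 to 11.86 without BACE2 and 11.98 to 12.22 with it, and fell by 0.38 (call lost in 3 of these fits).

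Ion and water channels were called on both sides. Aqp4 encodes a water channel best known from astrocytes. Aqp4 read 3.8, 5.9 and 6.11 in BACE2-KO and 5.56, 5.18 and 6.37 in hIAPP-TgxBACE2-KO arrays, against 8, 7.59 and 7.44 in WT and 8.41, 7.49 and 7.48 in hIAPP-Tg arrays. BACE2-KO replicate 1 was far below the other arrays without BACE2, and all 6 lay below the lowest array with it. Aqp4 fell by 2.25 (SE 0.36, adjusted p = 0.0149), the largest fall of the comparison, kept its call in every setting, and stood at -1.46 with the mean of its probe sets. Aqp11, an intracellular aquaporin, fell by 0.36 (0.19 and not called with the mean of its probe sets), with the call lost in 10 of 12 fits with an array left out. Trpm5, a calcium-activated cation channel of taste cells and beta cells, rose by 0.61 (SE 0.12, adjusted p = 0.0315), with levels of 9.49 to 9.78 without BACE2 and 8.39 to 9.4 with it, and lost the call in 8 of 12 fits with an array left out. Scn3a, a voltage-gated sodium channel of beta cells and neurons, fell by 0.66 (SE 0.12, adjusted p = 0.0263). Its call was lost in 5 of these fits and with the mean of its probe sets, where it stood at -0.32. Rem2, a small GTPase that inhibits voltage-gated calcium channels, rose by 0.58 (call lost without WT replicate 1). The potassium and calcium channel list also holds some other cation channels. It had 12 of 23 members higher, 1 up and 1 down call (Trpm5 and Scn3a, both from those others) and a median of 0.00.

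Some genes of vesicle traffic, grouped after their values were seen, were called. Rab3b, a small GTPase of regulated exocytosis, read 6.96, 6.88 and 7.1 in BACE2-KO and 6.59, 6.56 and 7.14 in hIAPP-TgxBACE2-KO arrays, against 7.89, 7.33 and 7.65 in WT and 7.59, 7.68 and 7.9 in hIAPP-Tg arrays. The groups did not overlap, and it fell by 0.80 (SE 0.12, adjusted p = 0.0108) in every setting. Rab37, another GTPase of secretory granules, fell by 0.57 (SE 0.08, adjusted p = 0.00851), with levels of 8.46 to 8.9 without BACE2 and 9.01 to 9.58 with it. Rab7, the GTPase of late endosomes, had the smallest called difference and fell by 0.23 (SE 0.04, adjusted p = 0.0296), with levels of 10.29 to 10.36 without BACE2 and 10.44 to 10.61 with it. Cadps2, a priming factor of dense-core vesicles, fell by 0.54, and Rab39b rose by 0.40. Rab7 lost its call in 9, Cadps2 in 11 and Rab39b in 6 of the 12 fits with an array left out. Of 25 tested genes of the secretory granule and exocytosis list 13 were higher, 0 were called by limma (9 had an unadjusted p under 0.05) and the median was 0.04. With 0.92% of all tested genes called, 0 calls do not set a list of this size apart. That list holds none of the called genes just named, and Ptprn2, a granule membrane protein, differed by -0.26 (adjusted p = 0.243).

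Secreted and surface proteins changed as well. Tnfrsf11b encodes osteoprotegerin, a decoy receptor for RANKL. Tnfrsf11b read 3.08, 3.8 and 3.22 in BACE2-KO and 3.48, 4.09 and 3.74 in hIAPP-TgxBACE2-KO arrays, against 5.03, 5.42 and 4.8 in WT and 6.15, 4.12 and 4.82 in hIAPP-Tg arrays. The highest array without BACE2 lay just under the lowest with it, and BACE2-KO replicates 1 and 3 lay under the filter level of 3.43. Tnfrsf11b fell by 1.49 (SE 0.28, adjusted p = 0.0296), with the call lost in 7 of 12 fits with an array left out. Angptl6, an angiopoietin-like secreted protein, read 7.98, 8.73 and 8.43 in BACE2-KO and 7.96, 8.45 and 8.28 in hIAPP-TgxBACE2-KO arrays, against 6.37, 7.04 and 7.85 in WT and 6.87, 7.43 and 7.45 in hIAPP-Tg arrays. It rose by 1.14 (SE 0.22, adjusted p = 0.0319), with a gap of little size between the groups and the call lost in 9 of those fits. Igfbp4, which binds insulin-like growth factors, rose by 1.03 (SE 0.16, adjusted p = 0.0102) in every setting, with levels of 7.27 to 7.92 without BACE2 and 5.76 to 7.14 with it, and was the single call of 16 tested genes of the list of genes that beta cells normally keep low. Pappa2, a protease that cleaves insulin-like growth factor binding proteins, rose by 1.11 (SE 0.23, adjusted p = 0.0469), with overlapping ranges. Nptx2, a neuronal pentraxin, rose by 1.58 (SE 0.33, adjusted p = 0.0444), also with overlap, and Pappa2 and Nptx2 lost their calls in 9 and 10 of the fits. Cd44, the hyaluronan receptor, fell by 0.97 (SE 0.16, adjusted p = 0.0164) and lost its call without WT replicate 1 or WT replicate 2. Ccl28, a mucosal chemokine, fell by 1.11 (call lost in 9 of the fits), but by 0.39 with the mean of its probe sets, where it was not called.

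The proteases and substrates nearest to BACE2 itself gave 0 calls in limma, with an unadjusted p under 0.05 for 1 and 4 genes of the 2 lists. With 0.92% of all tested genes called, 0 calls in 2 short lists do not set them apart. Of 16 tested secretases and related proteases 6 were higher, the median was -0.03, and Aph1c, a subunit of gamma-secretase, differed by 0.39 (adjusted p = 0.24). App, the amyloid precursor protein gene, differed by 0.09 (adjusted p = 0.698). Of 17 tested genes whose proteins have been reported as BACE2 substrates 11 were higher, with a median of 0.04. Sez6l, a neuronal membrane protein, differed by -0.47 (adjusted p = 0.141), Sdc4, a syndecan, by -0.41 (adjusted p = 0.102), Fgfr1 by 0.35 (adjusted p = 0.148) and Igf1r by 0.47 (adjusted p = 0.253). These are transcript levels, and protein shedding was not measured. The calcium-binding protein gene Kcnip3, also known as calsenilin for its binding to presenilins, rose by 0.56 (SE 0.11, adjusted p = 0.0303), with levels of 5.48 to 5.94 without BACE2 and 4.95 to 5.33 with it, and lost its call in 7 of 12 fits with an array left out.

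Some germ cell and cell cycle genes were called. Tex15, known from meiosis and transposon silencing in male germ cells, read 5.73, 5.23 and 6.36 in BACE2-KO and 5.28, 4.87 and 5.16 in hIAPP-TgxBACE2-KO arrays, against 3.47, 3.49 and 3.09 in WT and 3.26, 3.81 and 3.59 in hIAPP-Tg arrays. The groups were far apart, and levels with BACE2 lay near the filter level. It rose by 1.99 (SE 0.18, adjusted p = 0.000282) and kept its call throughout. Ccnb1ip1, which acts in meiotic crossing over, read 5.48, 5.09 and 3.78 in BACE2-KO and 5.1, 4.28 and 6.35 in hIAPP-TgxBACE2-KO arrays, against 3.09, 3.34 and 3.13 in WT and 3.16, 3.45 and 3.29 in hIAPP-Tg arrays. The arrays without BACE2 spread widely, from 3.78 to 6.35, and 5 of the 6 arrays with BACE2 lay under the filter level. It rose by 1.77 (SE 0.33, adjusted p = 0.0263), a call lost in 7 of 12 fits with an array left out. Mcm6, a subunit of the replicative helicase, fell by 0.71 (SE 0.10, adjusted p = 0.00986) with no call lost, and the cell cycle inhibitor gene Cdkn1a rose by 0.62 (SE 0.12, adjusted p = 0.031), lost in 8 of the fits. In the cell cycle and DNA replication list 10 of 25 were higher, with a median of -0.03, and Top2a differed by -0.28 (adjusted p = 0.452). The calls of that list were Mcm6 and Cdkn1a (8%, against 0.92% of all tested genes).

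Further large rises were seen in genes with roles less tied to islets. Tmem179, a transmembrane protein gene, read 7.95, 6.26 and 6.81 in BACE2-KO and 6.28, 7.58 and 6.72 in hIAPP-TgxBACE2-KO arrays, against 4.77, 4.8 and 5.15 in WT and 3.9, 5.26 and 5.13 in hIAPP-Tg arrays. It rose by 2.10 (SE 0.32, adjusted p = 0.01), the largest rise among called genes, and kept its call in every setting. Fam163a read 6.5, 6.49 and 6.29 in BACE2-KO and 6.77, 5.99 and 6.46 in hIAPP-TgxBACE2-KO arrays, against 4.86, 5.02 and 5.91 in WT and 4.3, 4.86 and 4.9 in hIAPP-Tg arrays. WT replicate 3 lay close under the lowest array without BACE2, and the rise was 1.44 (SE 0.19, adjusted p = 0.00469), called in every setting. Fam81a read 5.62, 5.78 and 6.05 in BACE2-KO and 5.83, 5.79 and 5.92 in hIAPP-TgxBACE2-KO arrays, against 4.65, 4.72 and 5.09 in WT and 4.84, 4.63 and 4.7 in hIAPP-Tg arrays. The 6 arrays without BACE2 lay between 5.62 and 6.05, and the rise was 1.06 (SE 0.11, adjusted p = 0.000716), again in every setting. Tmem87a, a Golgi membrane protein gene, read 8.38, 8.38 and 8.34 in BACE2-KO and 8.74, 8.4 and 8.32 in hIAPP-TgxBACE2-KO arrays, against 7.71, 7.49 and 7.54 in WT and 7.83, 6.66 and 5.84 in hIAPP-Tg arrays. Its rise of 1.25 (SE 0.24, adjusted p = 0.0327) rests in part on hIAPP-Tg replicates 2 and 3, which were far below the other arrays, and the call was lost in 10 of 12 fits with an array left out.

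Further large falls were seen in genes of cilia, RNA binding and inositol signalling. Rpgrip1, which encodes a protein of the photoreceptor cilium, read 5.46, 5.51 and 7.35 in BACE2-KO and 5.53, 7.16 and 5.87 in hIAPP-TgxBACE2-KO arrays, against 7.96, 8.08 and 8.11 in WT and 8.19, 8.08 and 8.1 in hIAPP-Tg arrays. The arrays with BACE2 lay close together, and BACE2-KO replicate 3 and hIAPP-TgxBACE2-KO replicate 2 lay well above the other arrays without it. It fell by 1.94 (SE 0.32, adjusted p = 0.0164) (call lost without WT replicate 2, adjusted p = 0.0504) and by 0.49 with the mean of its probe sets, the others of which lay under the filter level. Rbm45, an RNA-binding protein gene, read 6.03, 6.12 and 6.23 in BACE2-KO and 6.21, 6.25 and 6.21 in hIAPP-TgxBACE2-KO arrays, against 7.65, 7.63 and 7.51 in WT and 7.39, 6.91 and 6.72 in hIAPP-Tg arrays. It fell by 1.13 (SE 0.11, adjusted p = 0.000414) in every setting, with all arrays without BACE2 within a narrow range. Dcdc2a, a doublecortin family gene, read 5.11, 4.78 and 5.49 in BACE2-KO and 4.71, 5.26 and 5.49 in hIAPP-TgxBACE2-KO arrays, against 7.15, 5.87 and 6.22 in WT and 6.36, 5.99 and 6.34 in hIAPP-Tg arrays. It fell by 1.18 (SE 0.22, adjusted p = 0.0251), with the call lost without hIAPP-Tg replicate 3, BACE2-KO replicate 2 or hIAPP-TgxBACE2-KO replicate 1.

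Ppip5k1, a kinase that makes inositol pyrophosphates, read 4.44, 4.66 and 4.33 in BACE2-KO and 4.6, 4.16 and 4.48 in hIAPP-TgxBACE2-KO arrays, against 5.65, 5.23 and 5.14 in WT and 5.38, 4.88 and 5.84 in hIAPP-Tg arrays. It fell by 0.91 (SE 0.16, adjusted p = 0.0219) without overlap, and lost the call in 4 of 12 fits with an array left out. A930017M01Rik, a transcript without a gene name, read 4.92, 4.41 and 4.76 in BACE2-KO and 5.21, 4.6 and 4.66 in hIAPP-TgxBACE2-KO arrays, against 5.46, 5.6 and 5.98 in WT and 6.63, 5.65 and 5.38 in hIAPP-Tg arrays. It fell by 1.02 (SE 0.21, adjusted p = 0.039), lost in 9 of the fits. Elavl4, a neuronal RNA-binding protein gene, fell by 0.46 (SE 0.07, adjusted p = 0.0111) with no call lost, and Zcchc12, a zinc finger coactivator gene, rose by 0.90 (SE 0.11, adjusted p = 0.00218), also with none lost.

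**Figure D3:**
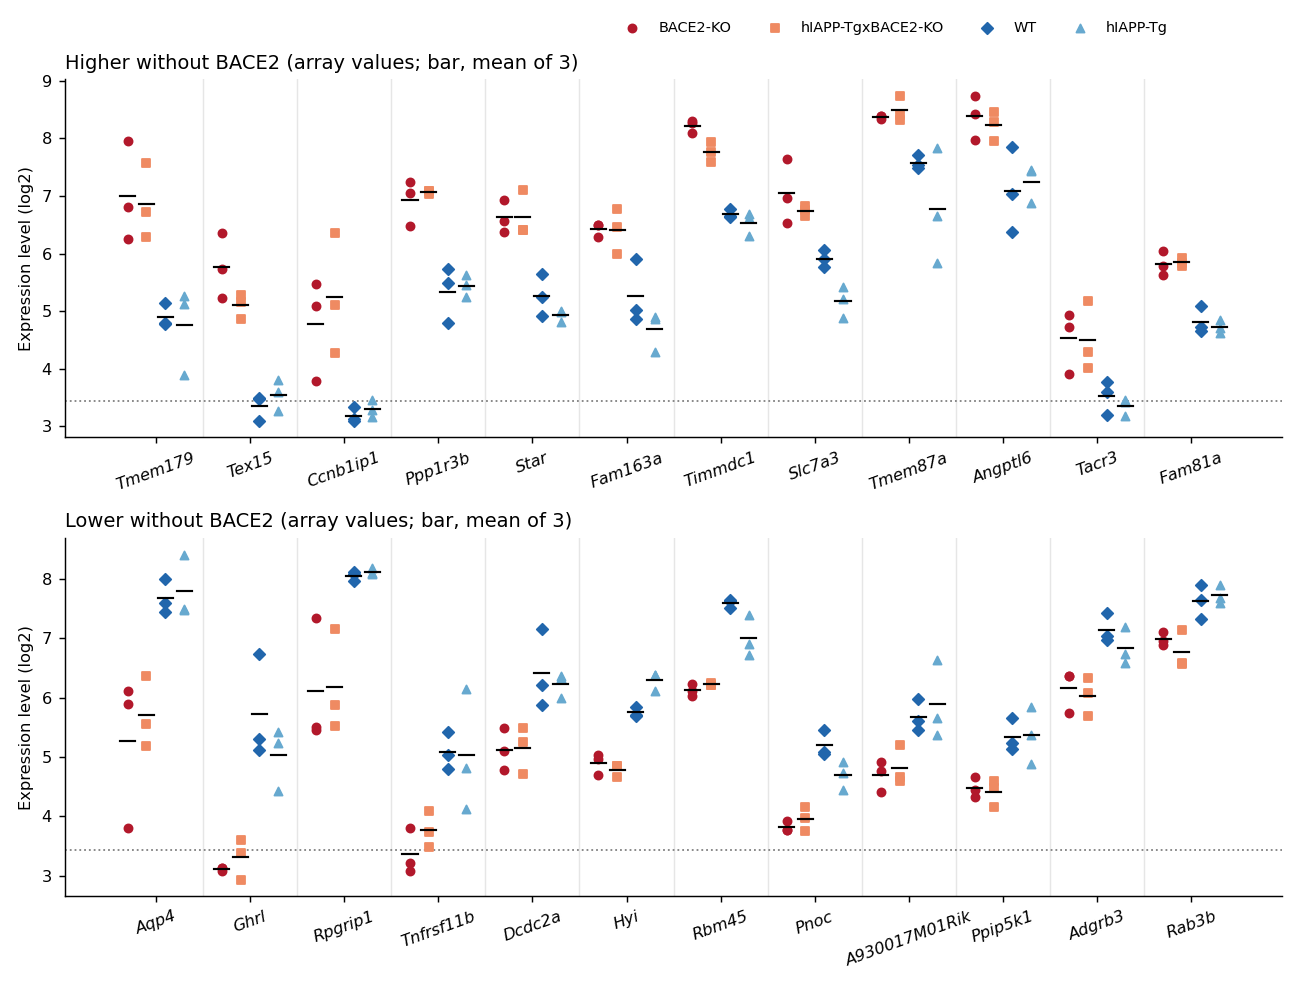
Log2 level in each array of the 12 genes with the largest rises (top) and the 12 with the largest falls (bottom) among called genes without overlap between groups. For each gene BACE2-KO, hIAPP-TgxBACE2-KO, WT and hIAPP-Tg run from left to right, the bar is the mean of 3 arrays, and the dotted line is the filter level of 3.43. Ghrl without BACE2 and Tex15 and Ccnb1ip1 with it lie near or under that line.

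The difference had opposite signs without and with the transgene for Sema5a, a transmembrane semaphorin of axon guidance. Sema5a read 3.62, 3.69 and 4.79 in BACE2-KO and 3.7, 3.55 and 3.55 in hIAPP-TgxBACE2-KO arrays, against 3.5, 3.62 and 3.43 in WT and 8.61, 8.49 and 7.47 in hIAPP-Tg arrays. The hIAPP-Tg arrays stood far above all others, and the WT arrays overlapped those without BACE2. The difference was 0.52 in BACE2-KO against WT and -4.59 in hIAPP-TgxBACE2-KO against hIAPP-Tg, so its averaged difference of -2.04 (SE 0.22, adjusted p = 0.000921) describes neither pair of groups. The interaction, the second difference minus the first, was -5.11 (SE 0.45, adjusted p = 0.000722), the single call of that test (0.0078% of tested genes), while 308 genes had an unadjusted p under 0.05. With the mean of its probe sets the averaged difference was -1.20. Snhg18, a small nucleolar RNA host gene just before Sema5a among tested genes on chromosome 15, read 6.22, 6.09 and 6.52 in BACE2-KO and 5.97, 6.11 and 6.25 in hIAPP-TgxBACE2-KO arrays, against 6.12, 6.33 and 6.23 in WT and 8.88, 8.51 and 7.72 in hIAPP-Tg arrays. Its difference was 0.05 without the transgene and -2.26 with it, with an interaction of -2.31 (adjusted p = 0.0705). In an additive model neither Sema5a nor Snhg18 was called for BACE2 loss (adjusted p = 0.266 and 0.193).

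Markers of the other cells that islet preparations hold were read as whole lists. Acinar markers had 10 of 17 members higher, 0 called (1 with an unadjusted p under 0.05) and a median of 0.08, which ran from -0.24 without WT replicate 3 to 0.35 without WT replicate 1. Their mean level spread from 9.38 to 11.03 without BACE2 and from 8.61 to 11.03 with it. Prss1, a trypsinogen gene, differed by 2.52 (adjusted p = 0.242). With the acinar level as a covariate 162 genes were called, 113 of them among the 118. Duct markers had 7 of 11 higher and a median of 0.04, and Krt19 differed by 1.22 (adjusted p = 0.272). Stellate cell and fibroblast markers had 12 of 14 higher and a median of 0.19, but -0.06 in BACE2-KO against WT and 0.30 in hIAPP-TgxBACE2-KO against hIAPP-Tg. Macrophage and myeloid markers had 4 of 17 higher and a median of -0.13 (-0.02 without hIAPP-TgxBACE2-KO replicate 1), with mean levels from 5.75 to 6.88 without BACE2 and from 5.81 to 6.81 with it. Lyz2, the lysozyme of macrophages, differed by -0.54 (adjusted p = 0.406). Endothelial markers had 6 of 16 higher and lymphocyte markers 1 of 5. None of the markers in these 6 lists was called, and an unadjusted p under 0.05 was found for 1 duct and 2 macrophage markers. Since 0.92% of all tested genes were called, 0 calls in lists this short do not set them apart. The part of these cell types in the calls was not tested beyond the acinar covariate.

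Islet cell lists held 1 call among 16 tested beta cell genes (6.25%) and 2 among 7 tested epsilon and PP cell genes (28.6%). Over all tested genes 0.92% were called, so 0 calls among alpha and delta cell markers do not set those lists apart. Alpha cell markers had 11 of 12 members higher and a median of 0.20, with 0 called (4 with an unadjusted p under 0.05). Their median was 0.33 in BACE2-KO against WT and 0.13 in hIAPP-TgxBACE2-KO against hIAPP-Tg, a difference that was not tested, and the transcription factor genes Irx1 and Irx2 differed by 0.68 (adjusted p = 0.26) and 0.48 (adjusted p = 0.221). Beta cell identity genes had 10 of 16 higher and a median of 0.04, with Trpm5 the single call, and Pcsk1, a prohormone convertase, differed by 0.25 (adjusted p = 0.286) and Abcc8, the sulfonylurea receptor, by -0.28 (adjusted p = 0.306). Delta cell markers had a median of 0.00, and Frzb differed by -0.21 (adjusted p = 0.489). The epsilon and PP cell list held opposite calls, the fall of Ghrl and a rise of Etv1, an ETS transcription factor gene, by 0.51 (SE 0.09, adjusted p = 0.024). The call of Etv1 was lost in 4 of 12 fits with an array left out. Ppy, the pancreatic polypeptide gene, differed by -0.08 (adjusted p = 0.68). Of the 7 tested genes of that list 6 were lower, with a median of -0.08.

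Immune and inflammatory lists gave 0 calls in limma, with an unadjusted p under 0.05 for 3 genes of antigen presentation, 4 interferon-stimulated and 1 inflammatory gene. As 0.92% of all tested genes were called, 0 calls in lists of this size do not set them apart. All 12 tested genes of MHC class I antigen presentation were lower, with a median of -0.12, and Psmb9, an immunoproteasome subunit, differed by -0.34 (adjusted p = 0.286). Interferon-stimulated genes had medians of opposite sign, -0.18 in BACE2-KO against WT and 0.16 in hIAPP-TgxBACE2-KO against hIAPP-Tg, and an averaged median of -0.01. Xaf1 differed by -0.74 (adjusted p = 0.333). The inflammatory and NF-kB list had a median of 0.02, and Il1r1, the receptor of interleukin 1, differed by -0.42 (adjusted p = 0.0691). Of the other lists without a call, immediate early genes had a median of 0.06, lysosome and autophagy genes -0.01, cytosolic ribosomal protein genes 0.03, neuron and Schwann cell markers -0.04, strain-variable genes -0.05 and sex-linked genes -0.10. Of these 6 lists 3 immediate early, 3 lysosomal, 1 neuronal and 1 strain-variable gene had an unadjusted p under 0.05. Apoptosis and p53 target genes had 13 of 21 higher and a median of 0.06, with Cdkn1a the single call.

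**Figure D4:**
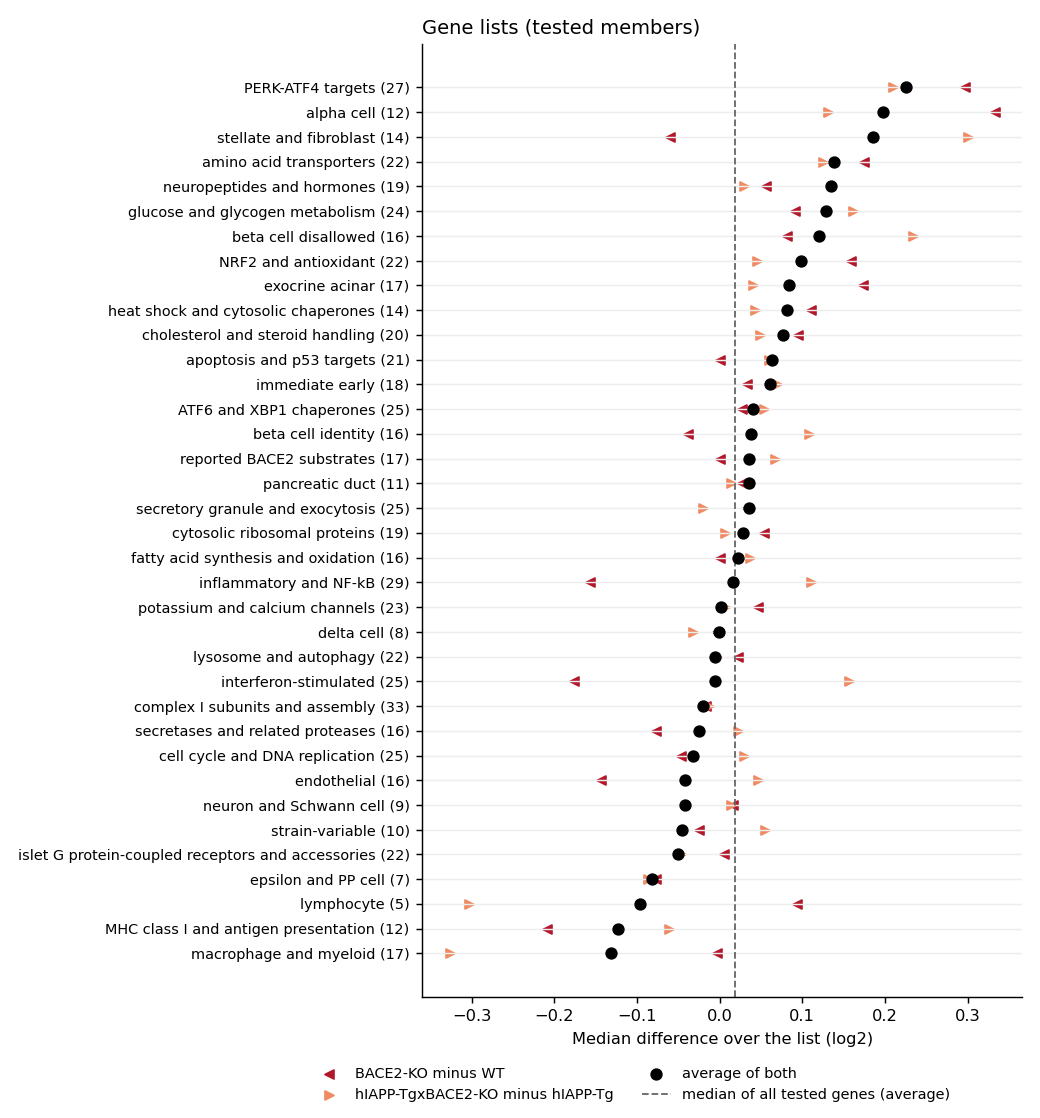
Median log2 difference over the tested members of each list (number in brackets), for BACE2-KO minus WT (red, left-pointing), hIAPP-TgxBACE2-KO minus hIAPP-Tg (orange, right-pointing) and their average (black), with the list of 4 sex-linked genes left out. The dashed line is the median of all tested genes, 0.02. PERK-ATF4 targets have the highest averaged median, 0.23, and macrophage markers the lowest, -0.13.

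Called genes were spread over the chromosomes. Chromosome 14 had 7 of 417 tested genes called (1.68%), chromosome 2 had 17 of 1029 (1.65%) and chromosome 8 had 11 of 686 (1.60%), against 0.92% overall. The X chromosome had 4 of 393 tested genes called (1.02%), close to the 0.92% of all tested genes. All 4 rose: Slc7a3, Zcchc12, Tmem35a and Rab39b. The call of Tmem35a was lost in 10 of 12 fits with an array left out. Calls in a single direction were also found on chromosomes 10 (3 lower), 13 (4 lower) and 15 (5 lower). On chromosome 15 Tnfrsf11b, A930017M01Rik and Selenop fell, and the calls of Sema5a and Snhg18 rest on the groups with the transgene. On chromosome 8 Tex15, Ppp1r3b, Star, Pdgfrl, Frg1 and Ndrg4 rose, and Abcb10, 1700029J07Rik, Rnf150, Micu3 and Pcm1 fell.

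Called genes were compared with their neighbours. In the order of tested genes along a chromosome, 38 of the 118 lay within 10 positions of another call, in 22 neighbouring pairs. That is 32.2% of the called genes, while 15.2% of the 12682 other tested genes with a place on a chromosome lay as near to a call, and this difference was not tested. On chromosome 8 Tex15 and Ppp1r3b lay 10 positions apart, and Micu3, Pdgfrl, Pcm1, Frg1 and 1700029J07Rik formed a run with both directions. In that run Pcm1 lost its call in 10 and 1700029J07Rik in 11 of 12 fits with an array left out. The Pcm1 probe set used differed by -0.36 and its others by 0.06, -0.38, 0.13 and 0.04. On chromosome 14 Ccnb1ip1, Ndrg2 and Rpgrip1 formed such a run, with Ccnb1ip1 and Ndrg2 higher and Rpgrip1 lower. On chromosome 1 Fam163a, Astn1 and Pappa2 lay together and all rose. Igfbp4, which rose, and Smarce1, which fell by 0.40 (0.02 with the mean of its probe sets), were next to each other on chromosome 11. The call of Smarce1 was lost in 7 of 12 fits with an array left out.

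Near Bace2 itself, on chromosome 16, 1 of the 10 nearest tested genes was called, against 0.92% of all tested genes. Tmprss2, a membrane-bound serine protease gene 3 positions away, read 6.17, 6.92 and 6.97 in BACE2-KO and 6.86, 6.74 and 6.88 in hIAPP-TgxBACE2-KO arrays, against 7.31, 7.61 and 7.48 in WT and 7.84, 7.61 and 7.28 in hIAPP-Tg arrays. It fell by 0.77 (SE 0.14, adjusted p = 0.0263) without overlap, but lost the call in 6 of 12 fits with an array left out and with the mean of its probe sets (-0.48, adjusted p = 0.129). Pcp4, a calmodulin-binding peptide gene, differed by 1.06 (adjusted p = 0.348). The other calls of the chromosome, Slc35a5, Timmdc1 and Hacd2, lay 130, 152 and 185 positions from Bace2, and without the genes of this chromosome the fit called 114.

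**Figure D5:**
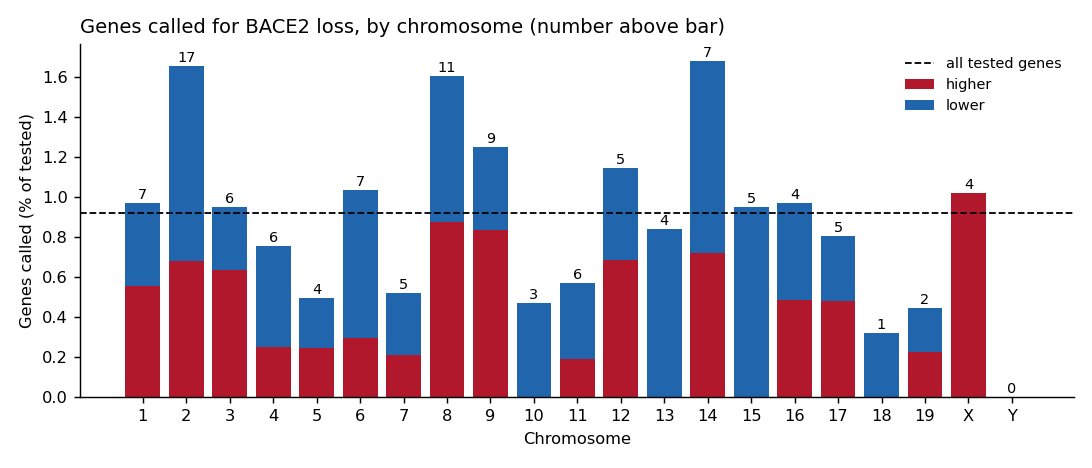
Share of tested genes called for BACE2 loss on each chromosome, split into genes that rose (red) and fell (blue), with the number of calls above each bar. The dashed line is the share over all tested genes, 0.92%. Chromosomes 2, 8 and 14 lie highest, with 1.60% to 1.68%, and chromosome 16, which holds Bace2, is at 0.97%.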

How the data were processed

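RNA of 12 islet samples, 3 in each of 4 genotypes, was extracted with Trizol and hybridised as biotinylated cRNA, per the labels' protocols. The deposited log2 values, for 45141 probe sets on each array, were made by the authors with the tools RMA and affy, which the submitters' processing notes name. The platform annotation gave 1 symbol to 28898 probe sets, several to 551 and none to 15692. At most 2.22% of values were equal between any 2 arrays. Which genome build was used is not given in the sources used here.

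Each gene took that one-symbol probe set whose mean level was highest. Genes whose mean lay under the 25th percentile (3.43) were left out, which removed 4272. Group means over all 12 arrays were fitted with limma 3.58.1 in R 4.3.3 (lmFit, eBayes with a variance trend), with Benjamini-Hochberg adjustment over 12825 genes, and the average, the 2 differences it joins and the interaction were taken as contrasts. These steps were tested on simulated data with known changes. Lists are described by counts and medians, with no test. The members and the 37 gene lists were chosen with earlier results of these data known.

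Named genes were Bace2, Bace1, Ins2, Gcg, any called gene, the 12 largest differences in each direction among called genes without overlap (all array values given), the gene called for the interaction, called members and up to 4 members with the smallest p of each list, and the 10 tested genes nearest Bace2. The alternatives were the filter, the probe set rule, median centring or quantile normalization of the deposited values, other variance models, fits restricted to the groups compared, an additive model, array weights, a block for the replicate number, the acinar level as a covariate, a threshold of 0.1, leaving out the chromosome of Bace2 and leaving out each array. Promoters and gene order came from RefSeq tables of GRCm38.p6. Plots were drawn with matplotlib 3.10.9.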

Additional observations from a re-analysis of the deposited data

Results flagged for a closer look

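Sema5a was the gene for which the effect of BACE2 loss differed between islets without and with the transgene by a test of that difference. The difference was 0.52 in BACE2-KO against WT and -4.59 in hIAPP-TgxBACE2-KO against hIAPP-Tg, and the interaction was -5.11 (SE 0.45, adjusted p = 0.000722 in limma over all tested genes). Every hIAPP-TgxBACE2-KO array lay below every hIAPP-Tg array. The other 3 groups lay between 3.43 and 4.79, close to 3.43, the level of the filter, and a difference that low is not resolved in size.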

How the results depend on the processing

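The count for BACE2 loss averaged over the transgene, 118 in the fit reported, ran from 83 to 205 over the alternatives that kept all arrays. Further settings gave 100 genes without a filter, 100 with the mean of a gene's probe sets, 121 after quantile normalization, 132 in the additive model and 165 with array weights. Of these, in the same order, 100, 79, 114, 111 and 116 were among the 118. It moved by more than 1.5 times with a threshold of 0.1 (192) and with the replicate number as a block (205, with 116 of the 118 among them). Samples of the same number had correlated deviations from -0.13 to 0.37 (median 0.14 over 18 pairs, against -0.07 for other numbers). Deviations were taken from the mean of each group's 3 arrays. This pushes the value for other numbers to the opposite sign, so it is no independent baseline. Of the 18 pairs 10 were over 0.1, and 8 of 12 arrays correlated best, on average, with their own number. The fit reported did not take the numbers as pairs, and whether they mark a shared step was not tested. With each array left out the average called 46 to 108 genes, of which 44 to 87 were among the 118. BACE2-KO against WT, 16 genes, called 6 with the filter at the 50th percentile, 9 with only the groups compared, 36 with array weights, and 5 to 16 with an array left out. hIAPP-TgxBACE2-KO against hIAPP-Tg, 13 genes, called 24 with median centring, 3 with only the groups compared, 29 with the replicate block, 27 at a threshold of 0.1, and 4 to 17 with an array left out. The interaction, 1 gene, had 0 calls in limma with the filter at the 50th percentile, where 135 genes had an unadjusted p under 0.05 and Sema5a was not tested, and 2 with a robust fit, with a threshold of 0.1 and without hIAPP-Tg replicate 3. With fewer arrays or fewer genes tested the counts change by construction, and the cause of the other moves was not tested. Of the 118 genes 32 were called in every setting in which they were tested, and 0 changed sign. Levels near the filter level of 3.43 limit the size of 13 called genes that had a group mean under it.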

Other observations

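Several gene families held more than 1 called gene, and these families were picked after the values were seen, so they carry no test. Over all tested genes 0.92% were called. Of 52 tested Rab GTPase genes 26 were higher, Rab39b rose and Rab37, Rab3b and Rab7 fell. Of 8 tested aquaporin genes Aqp4 and Aqp11 fell and 0 rose, with a median of -0.14. Ndrg2 and Ndrg4, members of a family named for N-myc repression, rose by 0.46 and 0.39 among 4 tested members, and lost their calls in 10 and 9 of the 12 fits with an array left out. Among 5 tested glycogen-targeting phosphatase subunits Ppp1r3b rose and Ppp1r3e fell, and the family median was -0.23. Of 9 tested MCM helicase genes Mcm6 alone was called.

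Probe sets with no gene symbol in the platform annotation were tested apart from the genes, in a fit of 31056 probe sets above the same filter. Of 9419 unnamed probe sets 52 were called (0.552%), 23 of them higher, against 176 of 21198 with 1 symbol (0.83%). The unnamed probe set with the largest rise averaged 6.56 without BACE2 and 3.82 with it, a difference of 2.74 that is larger than that of any called gene. The largest fall among unnamed probe sets was a difference of -2.01, with 2.77 without BACE2 and 4.79 with it.

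Where a called gene had further probe sets above the filter, their differences mostly ran the same way: 62 of 69 such probe sets, in 44 genes. The genes with a probe set of opposite sign were Ccl28, Galc, Kif5c, Pcm1 and Smarce1. A further 68 called genes have a single probe set, so no second reading exists for them here.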
